A study of Sus scrofa with 2 samples.

Results

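The EGF-like growth factors and the ERBB receptors were examined in granulosa cells of Chinese Erhualian pigs (Sus scrofa), the somatic cells that line the ovarian follicle and surround the oocyte. The cells had received SMAD4-siRNA or NC-siRNA, the control siRNA. SMAD4 is the SMAD protein shared by the TGF-beta, activin and BMP pathways. Each group is 1 library of total RNA, made from equal amounts of RNA of 3 individuals, so a difference between individuals or transfections cannot be told apart from one between siRNAs, and there is no replicate spread to set a difference against. Whether the same individuals gave cells to both groups is not stated, nor is the dose or duration of either siRNA.

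Of the 34570 genes in the tables, 9 were asked for by symbol: the ligands AREG, EREG, BTC, HBEGF, TGFA and NRG1 and the receptors EGFR, ERBB2 and ERBB3. A row under its own symbol was found for 7 of them. NRG1 appears under an ID that a reference table of assembly Sscrofa11.1 pairs with its symbol, and AREG is not analysed here. A mean value of at least 1 in upper-quartile-scaled RPKM, the deposited unit, was reached by 5 genes: EREG, BTC, HBEGF, TGFA and ERBB2. The rows of the members were picked by symbol and not by value. The members themselves were chosen with earlier results of these data known.

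EGF-like ligands are made as membrane-anchored precursors and are cut from the cell surface by ADAM proteases. Once free they bind ERBB receptors, which pair up and signal through RAS-ERK and PI3K-AKT. In the ovulatory follicle, luteinizing hormone acts on granulosa cells, which then release AREG, EREG and BTC, and these carry the signal inward to the cumulus cells around the oocyte. EGFR binds AREG, EREG, BTC, HBEGF and TGFA. ERBB2 has no known ligand of its own and acts as a partner of the other receptors, and ERBB3 binds neuregulins and has very weak kinase activity.

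The libraries held at least 17394711 reads on genes after SMAD4 siRNA and at least 17680952 after NC siRNA. SMAD4 itself had a value of 47.9 in the SMAD4 siRNA library and 85.0 in the NC siRNA library, a ratio of 0.563 (0.497 to 0.639) on 407 and 656 reads. Here and below a range in parentheses is an exact 95% interval from read counts. It covers counting error only: the spread between individuals is not in it, and reads may be PCR copies of 1 molecule, as no molecular identifiers were used. Reads are the smallest whole numbers that fit the values, so they are lower bounds, and true intervals can be narrower. Among 19 granulosa markers, 14 were measured, among them FOXL2 with 146 and 132, NR5A1 with 225 and 265, and GATA4 with 774 and 748 in the SMAD4 siRNA and NC siRNA libraries. Their summed value was 28535 after SMAD4 siRNA and 17274 after NC siRNA, most of it HSD3B1, a steroid hormone enzyme, with 23378 and 12334 in that order and a ratio of 1.90 (1.85 to 1.94). INHBA, the activin A subunit, had a ratio of 1.31 (1.22 to 1.41), and AMHR2, the receptor of anti-Müllerian hormone, 0.493 (0.266 to 0.886) on 19 reads after SMAD4 siRNA and 35 after NC siRNA. AMH, CYP19A1, CYP11A1 and INHBB were listed at 0 in both libraries, and FSHR, the receptor of follicle-stimulating hormone, had only 7 reads after SMAD4 siRNA and 9 after NC siRNA. Of the 12 theca and stroma markers 9 were measured, with a summed value of 431547 in the SMAD4 siRNA library and 652256 in the NC siRNA library. Most of it was ACTA2, with 341635 and 549693 in that order. Of the 9, 7 had a ratio below 1 and 2 above, beside 9056 and 7552 of all measured genes. The 2 above were DES, at 1.16 (1.11 to 1.22), and COL1A1, at 1.06 (1.01 to 1.11). The theca genes CYP17A1 and INSL3 were listed at 0. Summed values were 631 and 663 for leukocyte markers (6 of 11 measured), 720 and 778 for endothelial (6 of 9), 487 and 434 for epithelial (5 of 9) and 61.7 and 77.4 for oocyte markers (2 of 10) after SMAD4 siRNA and NC siRNA. In the same order, the leukocyte sum was mostly CD14 (566 and 579), with PTPRC at 0.606 and 0.334 and CD163 and CD3E at 0. PECAM1 (240 and 275) and EGFL7 (368 and 326) made up most of the endothelial sum, with TEK and TIE1 at 0. KRT8 (428 and 386) made up most of the epithelial sum and GDF9 (56.6 and 73.2) most of the oocyte sum. The part of these markers in the results below was not tested, and fewer cells of a type cannot be told apart from less RNA per cell.

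EREG and TGFA were the members with higher values after SMAD4 siRNA, BTC was lower, HBEGF was close to level and ERBB2 was slightly lower. Past a 2-fold difference on the scale of log2 of (value + 1), the 5 measured members numbered 2 higher and 0 lower. By the same rule 7.17% of all 16609 measured genes were higher and 6.68% lower, a measured gene being one whose mean reached 1. With 5 genes and 1 library per group, the count of 2 is a description of these members and not a result about the family. Both have few reads, and among the 3245 genes with 20 to 99 reads over both libraries the shares were 7.3% higher and 6.44% lower.

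EREG (epiregulin), one of the ligands released by granulosa cells at ovulation, had a value of 11.4 in the SMAD4 siRNA library, from 28 reads, and 3.58 in the NC siRNA library, from 8 reads. This is a ratio of 3.18 (1.41 to 8.07), or 1.43 as log2 of (value + 1). That log2 value was 0.93 with a pseudocount of 5 in place of 1, and 0.58 with values rescaled as for TPM, where the added 1 weighs more; the plain ratio after rescaling to the same sum was 3.45 (1.53 to 8.76). EREG was low in both libraries: 26.9% of measured genes had a lower value after SMAD4 siRNA and 13.7% after NC siRNA.

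TGFA (transforming growth factor alpha), which binds EGFR, had a value of 41.0 after SMAD4 siRNA, from 16 reads, and 14.1 after NC siRNA, from 5 reads. The ratio of 2.91 had an interval from 1.02 to 10.1, with a lower end close to 1. The smallest length that fits its values is 398 bases, which is short for an mRNA, so the true reads may be a multiple of these. The counting intervals of its level in each library, 23.4 to 66.6 after SMAD4 siRNA and 4.58 to 32.9 after NC siRNA, overlap.

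BTC (betacellulin), a ligand of EGFR and ERBB4, had a value of 11.5 in the SMAD4 siRNA library and 19.5 in the NC siRNA library, from 28 and 43 reads. Its ratio of 0.591 (0.354 to 0.974) was below 1 but short of 2-fold. With both libraries rescaled to the same sum of values the ratio was 0.642 (0.384 to 1.06), an interval that holds 1, and divided by the median ratio of measured genes it was 0.612 (0.366 to 1.01).

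HBEGF (heparin-binding EGF-like growth factor), whose precursor is also the diphtheria toxin receptor, was the ligand with the highest value in both libraries. It had 176 (132 to 230) after SMAD4 siRNA and 197 (149 to 257) after NC siRNA, from 54 and 55 reads. The ratio was 0.892, and its interval (0.601 to 1.32) holds 1, so no difference in either direction was detectable on these reads. Its smallest length, 313 bases, is also short for an mRNA, so the true reads may be more and the interval narrower. HBEGF lay above 68.2% of measured genes after SMAD4 siRNA and above 69.1% after NC siRNA.

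NRG1 (neuregulin 1), a ligand of ERBB3 and ERBB4, was listed at 0 in both libraries. A listed 0 does not show that a gene is silent here, since the widely expressed genes MAPK3, HPRT1, FLNA and POR were also listed at 0 in both.

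**Figure D1:**
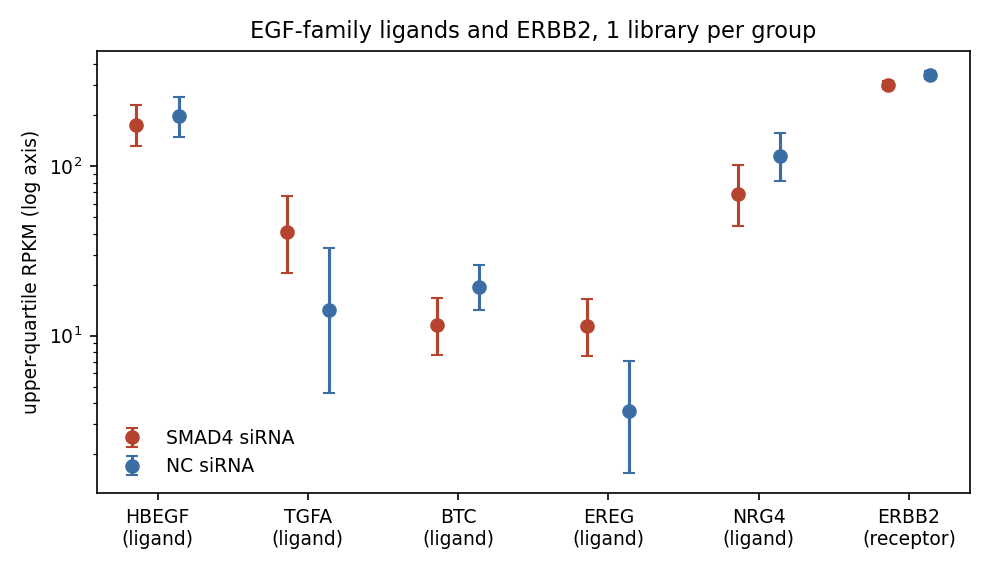
Values in upper-quartile-scaled RPKM (log axis) of the ligands HBEGF, TGFA, BTC, EREG and NRG4 and the receptor ERBB2 in the SMAD4 siRNA library (left, red) and the NC siRNA library (right, blue), with exact Poisson 95% intervals from the recovered reads as bars. ERBB2 and HBEGF have the highest values in both libraries, and EREG has 11.4 after SMAD4 siRNA and 3.58 after NC siRNA.

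ERBB2 was the receptor with reads enough to compare. Its value was 299 (284 to 316) in the SMAD4 siRNA library and 346 (328 to 365) in the NC siRNA library, from 1323 and 1389 reads. The ratio was 0.865 (0.802 to 0.933). That is a small difference. Intervals entirely below 1 were found for 21.5% of measured genes, and entirely above 1 for 12.7%. These shares are not matched to ERBB2 in reads, and many of the genes have far fewer reads and so wider intervals. With both libraries rescaled to the same sum the ERBB2 ratio was 0.939 (0.870 to 1.01), an interval that holds 1. Divided by the median ratio of measured genes it was 0.896 (0.830 to 0.967), an interval below 1.

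EGFR, the receptor that EREG, BTC, HBEGF and TGFA share, was listed at 0 in both libraries, so its level and any difference in it are not known from these tables. ERBB3 has 2 entries. The one under its symbol had 1 read after SMAD4 siRNA and 0 after NC siRNA, and the one that the reference table names ERBB3 had 4 reads after SMAD4 siRNA and 3 after NC siRNA, with values of 0.949 and 0.784 in that order. Both were below the mean value of 1, and no difference was detectable at this depth. ERBB4, the remaining receptor of the family, was also listed at 0 in both libraries.

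**Figure D2:**
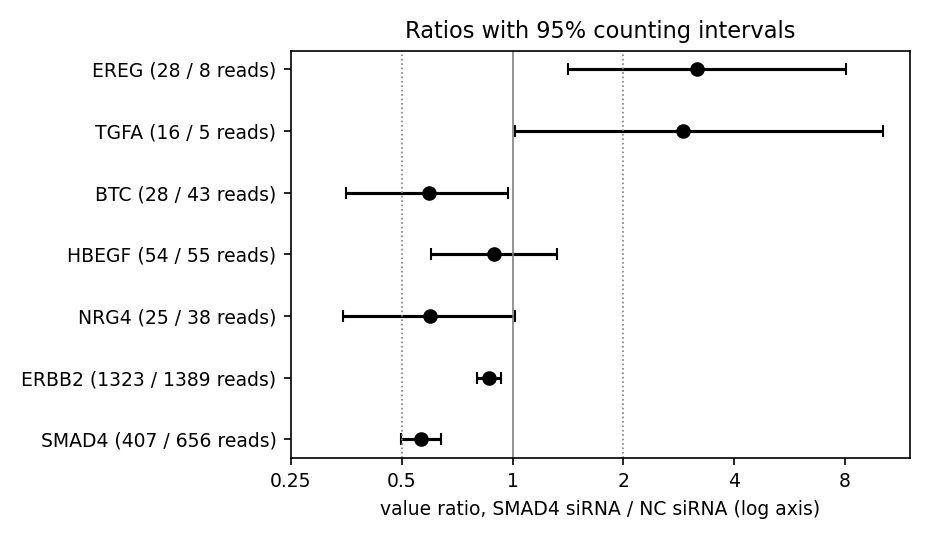
Ratio of values, SMAD4 siRNA over NC siRNA (log axis), of 5 members, NRG4 and the targeted gene SMAD4, with exact 95% counting intervals as bars and the smallest whole reads of both libraries beside each name (SMAD4 siRNA first); the solid line marks 1 and the dotted lines 0.5 and 2. The intervals of EREG and TGFA lie above 1, those of BTC, ERBB2 and SMAD4 below 1, and those of HBEGF and NRG4 hold 1.

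The order of ligand levels, which RPKM gives per transcript length, differed between the libraries. After SMAD4 siRNA it was HBEGF, TGFA, BTC and EREG, and BTC and EREG, at 11.5 and 11.4, had overlapping intervals (7.65 to 16.6 and 7.56 to 16.4). After NC siRNA it was HBEGF, BTC, TGFA and EREG, where TGFA overlapped both BTC (14.1 to 26.2) and EREG (1.55 to 7.05). HBEGF stood clear of the other 3 ligands in both libraries, and ERBB2 stood clear of HBEGF.

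Summed over the 4 measured ligands the value was 240 after SMAD4 siRNA and 235 after NC siRNA, a ratio of 1.02. Without HBEGF the ratio of the sums was 1.72, and with NRG4, a relative described below, it was 0.883, so its side of 1 depends on which ligands are counted. The make-up of that sum differed more than its size. HBEGF made up 73.4% of it after SMAD4 siRNA and 84.2% after NC siRNA, and TGFA made up 17.1% after SMAD4 siRNA and 6.02% after NC siRNA. EREG made up 4.74% after SMAD4 siRNA and 1.53% after NC siRNA, and BTC 4.80% after SMAD4 siRNA and 8.30% after NC siRNA. AREG and NRG4 are in neither the order nor these shares.

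Ratios of members were also set against each other, which takes out any scaling of whole libraries. Of the 10 pairs among the 5 measured members, 6 had a 95% interval of the ratio of ratios that lay above 1, with no adjustment for the number of pairs. Each pair has its higher ratio on top. All 6 hold EREG or TGFA and use the same reads as the single ratios, so they are not separate results. EREG stood apart from BTC by a factor of 5.38 (1.995 to 15.4), from HBEGF by 3.56 (1.41 to 9.80) and from ERBB2 by 3.67 (1.62 to 9.36). TGFA stood apart from BTC by 4.91 (1.48 to 18.8), from ERBB2 by 3.36 (1.17 to 11.8) and from HBEGF by 3.26 (1.04 to 12.1). EREG and TGFA were not distinguishable from each other, at a factor of 1.09 (0.238 to 4.58). Nor were BTC, HBEGF and ERBB2 among themselves, where ERBB2 over BTC was 1.46 (0.882 to 2.46), HBEGF over BTC 1.51 (0.788 to 2.90) and HBEGF over ERBB2 1.03 (0.689 to 1.54).

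**Figure D3:**
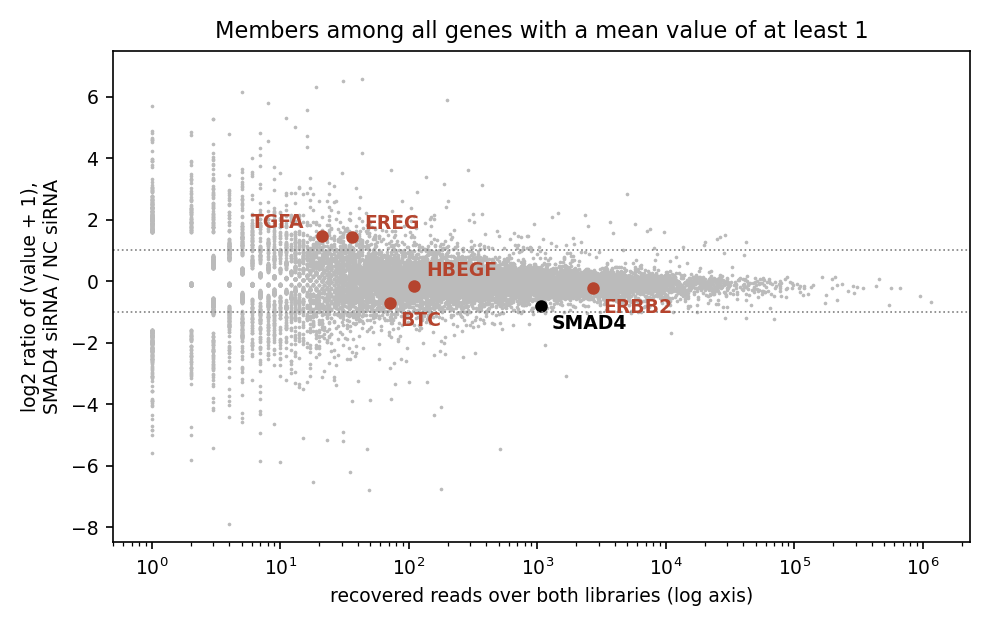
Log2 ratio of (value + 1), SMAD4 siRNA over NC siRNA, against the recovered reads over both libraries (log axis) for the 16609 measured genes (grey, mean value 1 or more), with 5 members in red and SMAD4 in black; dotted lines mark 2-fold. TGFA and EREG, with 21 and 36 reads, lie where the spread of all genes is wide, and ERBB2, with 2712 reads, lies where it is narrow.

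In the Sscrofa11.1 reference, EPGN, EREG, AREG and BTC follow one another in a cluster, flanked by MTHFD2L and PARM1. EPGN (epigen) was listed at 0 in both libraries. MTHFD2L, a mitochondrial folate enzyme, had 8 reads after SMAD4 siRNA and 5 after NC siRNA and a ratio of 1.45 (0.419 to 5.65), and PARM1 had a value of 95.6 after SMAD4 siRNA and 115 after NC siRNA, a ratio of 0.831 (0.643 to 1.07). EREG and BTC, the cluster's measured ligands, thus lay on opposite sides of 1 in these libraries. Of the relatives elsewhere in the genome, NRG4, a ligand of ERBB4, had a value of 68.6 after SMAD4 siRNA and 115 after NC siRNA, a ratio of 0.597 (0.346 to 1.02) on 25 and 38 reads. EGF, NRG2 and NRG3 were listed at 0 in both libraries.

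The genes around the ligands and receptors were described through 7 lists, by their counts and medians beside those of all measured genes, whose median log2 ratio was -0.048. Rescaling the libraries to the same sum takes that median to 0.058, so medians are given relative to it. For these medians the rescaled values sum to 1000000 in each library, far less than as deposited, with the same added 1 and minimum mean. Low genes then weigh less or drop out of a list, so a rescaled median does not show the effect of library scale alone. Over the 7 lists 1 of 107 measured genes was higher by 2-fold and 3 were lower, or 0.935% and 2.8%. By the same rule 7.17% of all measured genes were higher and 6.68% lower. Of the 107, 85 had at least 100 reads, and among all genes with as many reads 1.32% were higher and 1.12% lower. Of the genes called in the lists, PIK3R1, EGR2 and STAR had fewer than 100 reads, so the shares of the 107 are not like for like with these last 2.

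Of 13 measured genes that carry the gonadotropin signal to the ligand genes, 0 were higher and 0 lower by 2-fold. The list median lay at -0.094 relative to all genes. After rescaling it lay at 0.023, the other side of 0, but FSHR and PDE4D, low in both libraries, then fell below the minimum mean and left the list. NRIP1, a nuclear receptor cofactor needed for EGF-like ligand expression in the mouse ovary, had a ratio of 1.55 (1.16 to 2.09), with values of 17.7 after SMAD4 siRNA and 11.4 after NC siRNA. CRTC2, a coactivator of CREB, had 1.17 (1.05 to 1.29). ADCY9, an adenylyl cyclase, had 0.724 (0.614 to 0.853), and GNAS, the stimulatory G protein, 0.793 (0.780 to 0.806). Both entries of CREB1, at 0.831 and 0.820, had intervals that hold 1, and LHCGR, the luteinizing hormone receptor, was listed at 0.

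Of 11 measured genes of ligand shedding, 0 differed by 2-fold, with a median at -0.043 relative to all genes and at -0.032 after rescaling. ADAM17, the main protease for AREG, EREG, HBEGF and TGFA, had a value of 402 after SMAD4 siRNA and 383 after NC siRNA, a ratio of 1.05 (0.862 to 1.28). ADAM10, which cuts BTC, had 1.21 (0.910 to 1.63). The proteases lowest in this list were ADAM12, with 749 after SMAD4 siRNA and 1298 after NC siRNA and a ratio of 0.577 (0.559 to 0.597), and ADAM19 with 0.639 (0.595 to 0.688). RHBDF2, which brings ADAM17 to the cell surface, had 1.15 (1.05 to 1.27).

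Of 20 measured adaptors and members of the RAS-ERK relay, 0 differed by 2-fold, and the median lay at 0.020 relative to all genes and at 0.025 after rescaling. STAT5B, a signal transducer that ERBB receptors can activate, had 331 after SMAD4 siRNA and 286 after NC siRNA, a ratio of 1.16 (1.04 to 1.28). STAT3 was the lowest, at 0.737 (0.713 to 0.763), followed by MAP2K1, the kinase upstream of ERK, at 0.799 (0.697 to 0.916). In the PI3K-AKT relay 1 of 12 was lower by 2-fold and 0 were higher, with a median at -0.18 relative to all genes and at -0.21 after rescaling. The 1 gene was PIK3R1, a regulatory subunit, on 3 reads after SMAD4 siRNA and 14 after NC siRNA. RICTOR, a subunit of the mTOR complex that phosphorylates AKT, had 4.46 after SMAD4 siRNA and 2.45 after NC siRNA, a ratio of 1.82 (1.05 to 3.23) on 42 and 21 reads, and PIK3R3 had 0.663 (0.585 to 0.752).

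Among 23 measured genes that restrain the receptors or their RAS-ERK signalling, or act in receptor turnover, 17 had a log2 ratio below 0 and 6 above. Of all measured genes 9056 lay below 0 and 7552 above. Of the 23, 0 differed by 2-fold. The counting interval lay below 1 for 11 and above 1 for 0, or 47.8% and 0%, beside 21.5% and 12.7% of all measured genes. After rescaling to the same sum 14 ratios were below 1 and 9 above, beside 7279 and 9330 of all genes, and the interval lay below 1 for 6 and above 1 for 3, or 26.1% and 13%, beside 13.4% and 21.3%. Whether an interval excludes 1 depends on reads, and these shares of all genes are not matched for reads. In every other list too, more intervals lay below 1 than above it as deposited. The share below 1 ran from 25% for ERK-induced genes to 50% for ovulatory targets, with 18.8% and 8.33% above 1 in that order. The list of inhibitors and turnover genes had a median at -0.16 relative to all genes and at -0.17 after rescaling. SPRY4, a Sprouty inhibitor of RAS-ERK signalling, had a value of 42.8 after SMAD4 siRNA and 66.1 after NC siRNA, a ratio of 0.648 (0.486 to 0.860). ERRFI1, which binds and blocks EGFR and ERBB2 kinase domains, had 697 after SMAD4 siRNA and 981 after NC siRNA, a ratio of 0.710 (0.669 to 0.754). At the other end SOCS4 had 1.42 (0.881 to 2.33), USP8 1.37 (0.957 to 1.98) and SOCS5 1.32 (0.977 to 1.78), and each of these intervals holds 1.

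**Figure D4:**
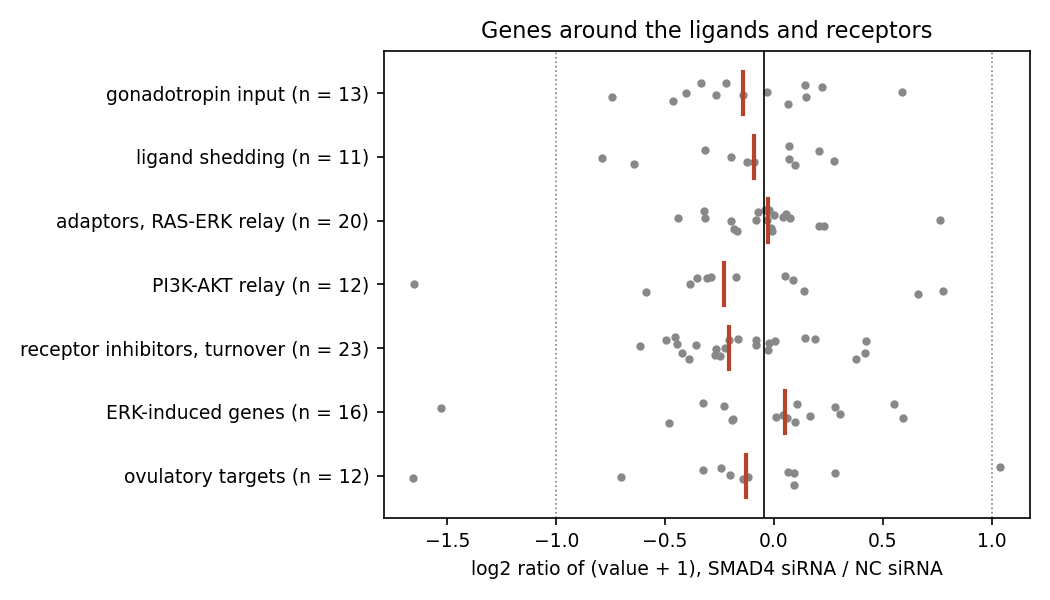
Log2 ratio of (value + 1), SMAD4 siRNA over NC siRNA, of each measured gene (grey points, jittered vertically) in 7 lists around the EGF-family ligands and receptors; red bars are list medians, the solid line the median of all measured genes (-0.048), and dotted lines mark 2-fold. Most points lie inside the dotted lines, and the genes past them number 0 or 1 in each list and direction.

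Of 16 measured genes that ERK signalling induces, 10 had a log2 ratio above 0 and 6 below, beside 7552 and 9056 of all measured genes. After rescaling to the same sum the split was again 10 and 6, beside 9330 and 7279. The counting interval lay above 1 for 3 and below 1 for 4, or 18.8% and 25%, beside 12.7% and 21.5% of all measured genes. After rescaling it lay above 1 for 6 and below 1 for 3, or 37.5% and 18.8%, beside 21.3% and 13.4%. These shares of all genes are not matched for reads. Among the 16 genes 0 were higher and 1 was lower by 2-fold, EGR2 on 4 reads after SMAD4 siRNA and 13 after NC siRNA. The list median lay at 0.097 relative to all genes and at 0.10 after rescaling. IER3, an early response gene, had 522 after SMAD4 siRNA and 356 after NC siRNA, a ratio of 1.47 (1.31 to 1.64), CCND1 had 1.23 (1.07 to 1.43) and DUSP5, an ERK phosphatase, 1.22 (1.02 to 1.45). MCL1, a survival factor, had 0.717 (0.677 to 0.758), EGR1 0.797 (0.723 to 0.877) and FOS 0.853 (0.650 to 1.12). DUSP6 and ETV5 were listed at 0 in both libraries.

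Of 12 measured ovulatory targets of EGF signalling, 1 was higher and 1 lower by 2-fold, with a median at -0.083 relative to all genes and at -0.14 after rescaling. The higher one was STAR, which carries cholesterol into mitochondria, with 2.27 (0.832 to 7.14) on 15 reads after SMAD4 siRNA and 6 after NC siRNA. The lower one was RUNX2, with 11.9 after SMAD4 siRNA and 39.8 after NC siRNA, a ratio of 0.300 (0.202 to 0.436). A second entry of RUNX2, named by the reference table and with more reads, had 160 after SMAD4 siRNA and 190 after NC siRNA, a ratio of 0.842 (0.707 to 1.002), so the size of the RUNX2 difference depends on the entry. CEBPB, a factor that granulosa cells need for ovulation in the mouse, had 0.614 (0.514 to 0.732) and ADAMTS1, which cleaves versican, 0.798 (0.715 to 0.890). RUNX1 had 1.22 (1.0008 to 1.48) and PTX3, a protein of the cumulus matrix, 1.07 (0.705 to 1.63). PTGS2, the prostaglandin synthase of ovulation, had 10 reads in each library, and TNFAIP6, which crosslinks the cumulus matrix, was listed at 0.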

How the data were processed

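Total RNA of 1 library per group, pooled from 3 individuals, was sequenced on an Ion Torrent Proton after the Ion Total RNA-Seq Kit v2.0, per the labels' protocols. The authors deposited RPKM with upper-quartile scaling, going by the names of the tables. Not given in the sources used here are aligner, read counter, genome build, annotation and strand use, so overlapping genes cannot be told apart. Of 19902 entries without a symbol, 2090 were named from the Sscrofa11.1 table, used for names and gene order alone.

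Whole reads were recovered as value × divisor × length / 1000000, with a divisor of 980 for SMAD4 siRNA and 890 for NC siRNA, at the smallest whole length up to 40000 bases. All 18428 genes above 0 gave whole reads (relative tolerance 2e-09, absolute 1e-06), and the 42 tRNA entries had a median length of 71.5 bases. Ratios are SMAD4 siRNA over NC siRNA, with exact Clopper-Pearson intervals; levels have exact Poisson intervals, and ratios of ratios conditional exact ones (scipy 1.17.1). Calls used log2 of (value + 1), a mean value of at least 1 and 2-fold. Nothing was tested, as each group is 1 library. The genes named are all members, SMAD4, the other family members, and up to 3 genes at each end of a list with at least 20 reads; ADAM17, PTGS2, LHCGR, the 2-fold calls, the flanking genes and those listed at 0 were added after their values were seen. A few list genes are left out of the text. The members and lists were chosen with earlier results of these data known. The steps were tested on simulated data.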

Additional observations from a re-analysis of the deposited data

How the results depend on the processing

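By 2-fold, 1191 genes were higher and 1110 lower. Raising the pseudocount to 5 gave 466 and 437, rescaling both libraries as for TPM gave 208 and 112, and a minimum mean of 5 gave 572 and 546. Thresholds of 1.5-fold and 4-fold gave 2245 and 378 higher and 2277 and 351 lower. Alternatives chosen after seeing the data gave 128 higher and 108 lower with at least 100 reads, 237 and 209 with 20 to 99 reads, and 433 and 434 with an interval that excludes 1. Fewer or more calls follow from the thresholds and minimums themselves, and rescaling lowers all values, so that the pseudocount and the minimum weigh more. Of the members, 2 were higher, and 1 (TGFA) at a pseudocount of 5, 1 (TGFA) after rescaling, where the plain ratio of EREG was 3.45 and its call was lost to the pseudocount, 0 at 4-fold and 0 with at least 100 reads, since EREG and TGFA have fewer. The members lower numbered 0, against 1 at 1.5-fold, which is BTC. On the log2 scale EREG ranged from 0.58 to 1.64 over the pseudocounts and scalings, TGFA from 1.05 to 1.53, BTC from -0.75 to -0.34 and HBEGF from -0.17 to -0.044. ERBB2 was at -0.087 after rescaling, against -0.21, and the RAS-ERK list median at 0.083, against -0.028; rescaling itself adds 0.12 to every log2 ratio of plain values. After rescaling, receptor inhibitor and turnover genes with an interval below 1 numbered 6, against 11, and those above 1 numbered 3, against 0. This alternative was also chosen after seeing the data. The other 62 of the 63 list medians under alternatives stayed within the order-statistic interval of the list. That interval treats the genes of a list as if they were replicates, so staying inside it does not show a stable median. Some of these changed sign. After rescaling, ligand shedding was at 0.026, against -0.090, and gonadotropin input at 0.081, against -0.14. The mean of the ERK-induced genes was -0.046, against a median of 0.049. No paired analysis was possible because each group has 1 library.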

Other observations

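Other growth factor receptor kinases and their ligands, a list of 25 genes written after values had been seen, were described in the same way. Of 17 measured, 2 were higher and 2 lower by 2-fold, beside 7.17% and 6.68% of all measured genes. The median log2 ratio lay at -0.25 relative to all genes and at -0.13 after rescaling. KIT, the receptor of stem cell factor, had a value of 72.1 after SMAD4 siRNA, from 257 reads, and 149.8 after NC siRNA, from 485 reads, a ratio of 0.481 (0.412 to 0.561). It is the 1 gene of these 4 with an interval that excludes 1; KITLG, MET and FGF2 rest on 7 to 15 reads over both libraries. FGFR1 and FGFR2, receptors of fibroblast growth factors, had ratios of 0.830 (0.767 to 0.897) and 0.757 (0.674 to 0.849), and FGFR4 had 1.51 (1.15 to 1.998). GAS6, the ligand of AXL, had 1789 after SMAD4 siRNA and 2796 after NC siRNA, a ratio of 0.640 (0.615 to 0.665), while AXL itself was at 0.944 (0.914 to 0.975). BDNF, a neurotrophin, had 0.734 (0.630 to 0.855).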
